A study of Homo sapiens with 28 samples.

Results

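The cyclin-dependent kinase (CDK) inhibitor genes were followed through mouse bone marrow and human T-cell leukaemia lines by the peaks of 2 histone marks. They are the INK4 genes Cdkn2a, Cdkn2b, Cdkn2c and Cdkn2d and the CIP/KIP genes Cdkn1a, Cdkn1b and Cdkn1c, chosen by family membership, with earlier results of these data known. All 7 were found among the 21887 protein-coding genes of the mouse annotation. In the human files the matching region was a window over CDKN2A and CDKN2B.

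INK4 proteins bind CDK4 and CDK6 and block their pairing with D-type cyclins, which keeps the retinoblastoma protein active and holds cells before DNA replication. CIP/KIP proteins bind cyclin-CDK complexes more broadly, CDK2 complexes in particular. Trimethylation of lysine 27 of histone H3 (H3K27me3) is written by Polycomb repressive complex 2, whose catalytic subunit is EZH2, and marks repressed genes. Acetylation of the same lysine (H3K27ac) marks active promoters and enhancers. The Cdkn2a-Cdkn2b locus is a textbook Polycomb target, and its loss or silencing is frequent in T-cell leukaemia.

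The series holds 28 chromatin immunoprecipitation and input libraries, 24 of them with peak files. Of these, 16 come from C57BL/6 mouse bone marrow, 1 per mark from each of 8 mice. The 3 WT mice were Ezh2(fl/fl) and Runx1(fl/fl), with both Rag1 alleles and both Flt3 alleles wild type (+/+), so they carried the floxed alleles without Cre. The 5 DKOITD mice carried the same floxed pairs of alleles together with Rag1(Cre/+) and Flt3(ITD/+), the internal tandem duplication of the Flt3 receptor. Their Cre is driven from the Rag1 locus, which is active in lymphoid progenitors, so deletion is limited to cells that have used Rag1 and their progeny. WT marrow had been enriched for Kit-expressing cells on CD117 microbeads, whereas DKOITD samples were total marrow, so genotype and cell preparation cannot be told apart in any comparison of the groups. No age is labelled. The human libraries came from Jurkat and Loucy (LOUCY), both established T-cell leukaemia lines, with 2 libraries per mark and line. The labels do not say that these were separate cultures.

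Peaks had been called by the authors in each library alone. For each gene the measure was the kilobases (kb) of peak within the gene interval plus 5 kb on either side, the gene's window, and a gene was counted as marked in a mouse at 200 bp or more. H3K27me3 libraries held 2766339 to 6411696 fragments and H3K27ac libraries 6515614 to 11458360, every WT H3K27ac library being shallower than every DKOITD one. Genome-wide H3K27me3 peak territory did not follow depth. It was 13.9 to 27.3 Mb in WT mice, but 3.17 Mb in DKOITD53e, 5.20 Mb in DKOITD48 and 5.24 Mb in DKOITD83, against 30.3 Mb in DKOITD52 and 40.5 Mb in DKOITD185. H3K27ac territory was also smallest in DKOITD53e (7.03 Mb), DKOITD83 (7.46 Mb) and DKOITD48 (13.1 Mb). Among lineage markers, H3K27ac lay on 5 of 5 general haematopoietic genes in every WT mouse and on 4 to 5 in DKOITD mice, and on 0 to 1 of 6 non-haematopoietic genes in both. Progenitor markers were marked at 3 to 4 of 5 in WT and at 0 to 3 of 5 in DKOITD mice, with Kit at 0 in 4 of the 5 DKOITD mice. Other progenitor markers were at 0 in WT mice too. Cd34 was at 0 in WT2, WT3 and every DKOITD mouse but DKOITD52, and Gata2 in WT1, WT2 and every DKOITD mouse. B-lineage markers were marked at 2 to 4 of 4 in WT and at 1 to 2 of 4 in DKOITD mice, erythroid markers at 2 to 3 and at 2 of 4, with Gata1 at 0 in all mice, and myeloid markers at 3 to 6 of 6 in both. The list for T-lineage cells gave 2 of 5 in WT and 1 to 2 of 5 in DKOITD, with Cd3e, Tcf7 and Bcl11b at 0 in all mice. In bulk marrow, fewer cells that carry a mark and less of the mark per cell cannot be told apart. The part of these library and cell-type differences in the values below was not tested, except where a value is given without the mice of small territory.

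The 7 genes divided by mark, and each held at least 1 mark at 200 bp or more in every mouse of both groups. Cdkn2a, Cdkn2b and Cdkn1c carried H3K27me3 in 8 of 8 mice, Cdkn2b in DKOITD53e by 1 weak peak of 0.335 kb. Cdkn2d and Cdkn1b carried H3K27ac in 8 of 8 and no H3K27me3 in any. Cdkn2c carried both marks in 8 of 8. The seventh, Cdkn1a, carried H3K27ac in 8 of 8 and short H3K27me3 peaks in 6. In all, 4 of 7 genes were marked by H3K27me3 in every mouse, where 5.95% of all protein-coding genes were, and 4 of 7 by H3K27ac, where 36.9% were. The count for H3K27me3 was 1 at a minimum of 1000 bp, and 0 with peaks of −log10 q of at least 5 or with equal numbers of peaks from each library. That for H3K27ac was 2 at −log10 q of at least 5 and stayed at 4 at a minimum of 1000 bp. With equal numbers of peaks Cdkn1a fell to 6 mice, and Cdkn2c, Cdkn2d and Cdkn1b stayed at 8. The states differ in how common they are. H3K27me3 in every mouse with H3K27ac in none, the state of Cdkn2b and Cdkn1c, was held by 3.39% of genes. No H3K27me3 in any mouse was found at 61.6% of genes, and no H3K27ac at 38.4%. H3K27ac in every mouse with H3K27me3 in none, the state of Cdkn2d and Cdkn1b, was held by 28% of genes. Both marks in every mouse, the state of Cdkn2c, was held by 0.635%, and both in at least 6 mice, which adds Cdkn1a, by 2.24%. H3K27me3 in every mouse with H3K27ac in at most 2, which takes in Cdkn2a, was held by 4.26%.

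**Figure D1:**
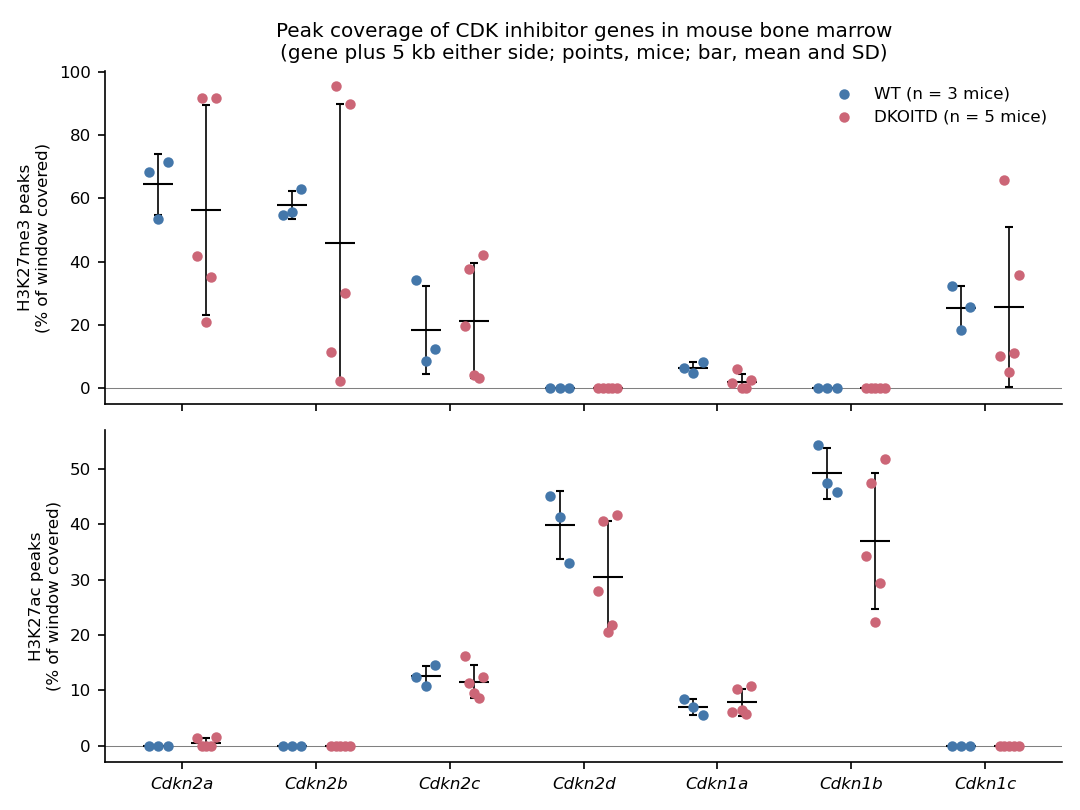
Percent of each gene's window (gene plus 5 kb either side) covered by H3K27me3 peaks (top) and H3K27ac peaks (bottom); points are mice, bars the mean and SD of 3 WT or 5 DKOITD mice. H3K27me3 is high over Cdkn2a and Cdkn2b and spans 2.27% to 95.4% of the Cdkn2b window, while Cdkn2d and Cdkn1b show H3K27ac alone.

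Cdkn2a encodes p16INK4a and, from another reading frame, the p53 activator ARF. It lies at chromosome 4, 89274473 to 89294619 (GRCm38, the mm10 build). H3K27me3 peaks covered 20.6, 16.1 and 21.5 kb of its 30.1 kb window in WT1, WT2 and WT3. In DKOITD mice they covered 12.6 kb in DKOITD48, 27.6 kb in DKOITD52, 6.36 kb in DKOITD53e, 10.6 kb in DKOITD83 and 27.6 kb in DKOITD185. DKOITD52 and DKOITD185 lay above every WT mouse and the other 3 below every WT mouse, so the groups overlapped with similar means, 19.4 ± 2.89 kb (SD, n = 3) and 17.0 ± 10.0 kb (SD, n = 5). Per length of window, Cdkn2a stood between the 99.18th and 99.55th percentile of all genes in each of the 8 libraries, those of small territory included. The authors' best peak there had a −log10 q of 2.39 to 5.80, which is modest in absolute terms, and was stronger than 62.7% to 94.1% of the peaks of its library.

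Cdkn2b encodes p15INK4b, the INK4 protein induced by TGF-beta, and lies at chromosome 4, 89306289 to 89311032. Its 14.7 kb window was covered by H3K27me3 over 8.09, 8.24 and 9.30 kb in WT1, WT2 and WT3. Coverage was 1.70 kb in DKOITD48, 14.1 kb in DKOITD52, 0.335 kb in DKOITD53e, 4.45 kb in DKOITD83 and 13.2 kb in DKOITD185. The WT mice sat close together and the DKOITD mice fell on both sides of them, with means of 8.54 ± 0.659 kb (SD, n = 3) and 6.75 ± 6.47 kb (SD, n = 5). The best H3K27me3 peak had a −log10 q of 3.70 to 4.43 in WT mice and 1.19 to 5.04 in DKOITD mice. The lowest value was that of the only peak in DKOITD53e, stronger than 10.8% of the peaks of its library. No mouse had an H3K27ac peak in this window.

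Across the 36.6 kb from the lower end of Cdkn2a to the upper end of Cdkn2b, H3K27me3 differed in continuity from mouse to mouse. In DKOITD185 a single peak of 42.5 kb covered 100% of it, the 7th longest of 25557 peaks in that library. In DKOITD52, 2 peaks covered 97.7%, the longer of 28.2 kb. WT1, WT2 and WT3 had 8, 10 and 6 peaks that covered 72.1%, 60.1% and 74.4%. DKOITD48, DKOITD53e and DKOITD83 had 7, 5 and 8 peaks over 35.0%, 12.9% and 34.1%. Measured from the lower end of Cdkn2a, DKOITD48 had no peak between 23.2 and 32.1 kb. DKOITD53e had none between 21.2 and 32.3 kb, so the genes were marked apart in these 2 mice. WT mice averaged 68.9 ± 7.65% (SD, n = 3) and DKOITD mice 55.95 ± 40.2% (SD, n = 5), a difference that did not pass the exact two-sided permutation test (p = 0.607). Among the DKOITD mice, coverage of this span followed the order of H3K27me3 territory except for DKOITD48 and DKOITD83, whose values were close in both (35.0% and 34.1%, 5.20 and 5.24 Mb).

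Some stretches were held in every mouse. Over Cdkn2a, 4 stretches that summed to 4.56 kb were under H3K27me3 in all 8 mice. They ran from −1.48 to 0.57 kb, from 2.03 to 2.68 kb, from 7.42 to 7.91 kb and from 19.8 to 21.2 kb, measured from the gene's lower-coordinate end, so that both ends of the gene were among them. For Cdkn2b the stretch common to all mice was 0.278 kb, from 0.49 to 0.77 kb inside its lower end. In DKOITD53e it rested on the single weak peak of 0.335 kb. DKOITD48 and DKOITD185 each had 1 H3K27ac peak in the Cdkn2a window, of 0.409 and 0.475 kb, and the other 6 mice had none. Both lay just past the upper end of Cdkn2a, at 20.6 to 21.0 kb and 20.5 to 20.9 kb, entirely within bases also under an H3K27me3 peak in the same mouse, where the long noncoding gene Gm12610 begins. These were weak peaks, with −log10 q of 2.05 and 2.35. The next protein-coding gene on the lower side, Mtap, 93.4 kb away, had no H3K27me3 in any mouse and was acetylated in all 3 WT and in 4 of the 5 DKOITD animals.

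**Figure D2:**
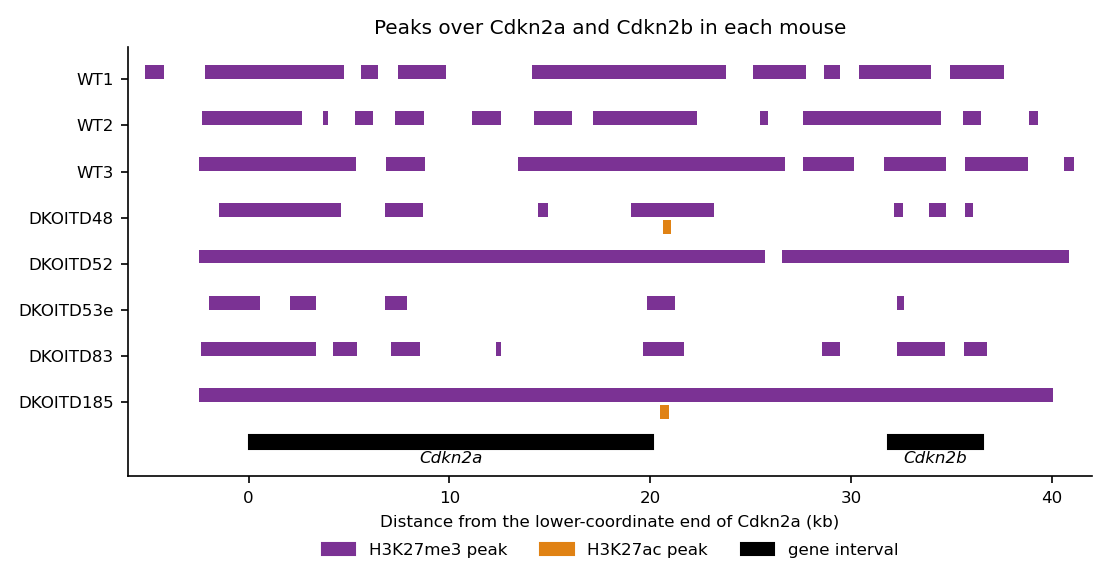
Peaks of each mouse against distance in kb from the lower-coordinate end of Cdkn2a; purple bars are H3K27me3 peaks, orange bars H3K27ac peaks, black bars the gene intervals. The span of the 2 genes holds 1 H3K27me3 peak in DKOITD185, 2 in DKOITD52 and 5 to 10 in the other mice.

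Cdkn2c encodes p18INK4c, an INK4 protein known to restrain haematopoietic progenitors and lymphocytes, and lies at chromosome 4, 109660876 to 109666756. H3K27me3 covered 5.45, 1.39 and 1.98 kb of its 15.9 kb window in WT1, WT2 and WT3. It covered 3.15 kb in DKOITD48, 5.98 kb in DKOITD52, 0.655 kb in DKOITD53e, 0.508 kb in DKOITD83 and 6.68 kb in DKOITD185. H3K27ac covered 1.98, 1.73 and 2.31 kb in the WT mice and 2.56, 1.79, 1.51, 1.39 and 1.98 kb in DKOITD48, DKOITD52, DKOITD53e, DKOITD83 and DKOITD185. The acetylated length thus stayed within 1.39 to 2.56 kb while the methylated length ranged from 0.508 to 6.68 kb. The stretches common to all mice lay at opposite ends. All mice shared H3K27ac from 4.99 to 6.37 kb, across the upper end of the gene, with −log10 q of 8.03 to 23.2. All mice shared H3K27me3 from −3.25 to −2.86 kb, below the lower end and next to the long noncoding gene 9630013D21Rik. Beyond these, WT1, DKOITD52 and DKOITD185 had a further H3K27me3 peak inside the gene, at 1.19 to 2.70 kb, 2.69 to 4.14 kb and 2.92 to 4.48 kb, the last 0.268 kb from the acetylated block. Only WT3 and DKOITD48 had both marks on the same bases, 282 and 584 bp, through a second small H3K27ac peak on the methylated side. In the other 6 mice a gap of 0.268 to 7.85 kb separated the marks. The next gene on the upper side, Faf1, had H3K27ac in 8 mice and H3K27me3 in none.

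Cdkn2d encodes p19INK4d, the remaining INK4 protein, and lies at chromosome 9, 21288459 to 21291421. H3K27ac covered 5.85, 5.37 and 4.29 kb of its 13.0 kb window in WT1, WT2 and WT3. It covered 3.63 kb in DKOITD48, 5.26 kb in DKOITD52, 2.66 kb in DKOITD53e, 2.82 kb in DKOITD83 and 5.41 kb in DKOITD185. The groups overlapped, DKOITD52 and DKOITD185 lying within the WT range and the other 3 below it. Per length of window the gene stood between the 99.39th and 99.86th percentile for H3K27ac in every library. All mice shared 1 stretch across each end of the gene, from −0.83 to 0.69 kb and from 2.37 to 3.36 kb, and in 4 mice a single peak joined them. The lower stretch also reaches Kri1, whose interval ends 0.49 kb away. Kri1's own window held the same H3K27ac coverage as that of Cdkn2d, so neither stretch can be assigned to Cdkn2d alone. Ap1m2, 3.19 kb away on the upper side, also touches the Cdkn2d window. Its own window held a mean of 2.69 kb of H3K27ac in WT and 2.08 kb in DKOITD mice. The percentile of Cdkn2d rests on peaks shared in this way.

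Cdkn1a encodes p21, the main p53-induced inhibitor, and lies at chromosome 17, 29090979 to 29100722. H3K27ac covered 1.68, 1.39 and 1.09 kb of its 19.7 kb window in WT1, WT2 and WT3, and 1.21, 2.02, 1.26, 1.13 and 2.13 kb in DKOITD48, DKOITD52, DKOITD53e, DKOITD83 and DKOITD185. H3K27me3 covered 1.25, 0.930 and 1.68 kb in the WT mice. It covered 0.349 kb in DKOITD48, 1.20 kb in DKOITD52 and 0.519 kb in DKOITD185, and there was no such peak in DKOITD53e or DKOITD83. H3K27me3 was thus present in 3 of 3 WT and 3 of 5 DKOITD mice, with means of 1.28 ± 0.375 kb (SD, n = 3) and 0.413 ± 0.493 kb (SD, n = 5), and DKOITD52 lay inside the WT range. The 2 DKOITD mice without it are among the 3 of small H3K27me3 territory.

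Both marks at Cdkn1a overlapped or adjoined inside the gene in the 6 mice that had them. All mice shared H3K27ac from 3.53 to 4.32 kb above the lower end, and the WT mice shared H3K27me3 from 2.97 to 3.49 kb. The same bases lay under both marks over 440 bp in WT2, 641 bp in WT3, 349 bp in DKOITD48, 1045 bp in DKOITD52 and 519 bp in DKOITD185, and in WT1 the marks were 0.033 kb apart. The methylation peaks were weak, with −log10 q of 1.62 to 2.40. The best acetylation peak had a −log10 q of 2.30 to 7.42 in WT and 6.16 to 24.2 in DKOITD mice. The WT libraries were the shallower, and the part of depth in this was not tested. Peaks from bulk marrow do not show whether any 1 cell carries both marks.

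Cdkn1b encodes p27, which is held at high levels in quiescent cells, and lies at chromosome 6, 134920401 to 134925525. It had no H3K27me3 in any mouse. H3K27ac covered 8.23, 7.18 and 6.93 kb of its 15.1 kb window in WT1, WT2 and WT3, and 5.19, 7.17, 3.39, 4.45 and 7.83 kb in DKOITD48, DKOITD52, DKOITD53e, DKOITD83 and DKOITD185. DKOITD52 and DKOITD185 lay within the WT range and the other 3 below it, with means of 7.44 ± 0.691 kb (SD, n = 3) and 5.61 ± 1.86 kb (SD, n = 5). Per length of window this was between the 99.75th and 99.90th percentile of all genes. The acetylation came in 2 blocks in every mouse, 1 across the lower end of the gene (from −0.49 to 1.05 kb in all mice) and 1 beyond its upper end (from 6.39 to 8.23 kb in all mice). The long noncoding gene Lockd begins 8.69 kb above the lower end of Cdkn1b, so the part of the second block common to all mice stops short of it, while in 5 mice (the 3 WT, DKOITD52 and DKOITD185) the peak ran into it. WT1 and WT3 had an additional small peak between −3.98 and −3.18 kb.

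Cdkn1c encodes p57, known for keeping haematopoietic stem cells quiescent and for being imprinted, with expression from the maternal allele. It lies at chromosome 7, 143458339 to 143461059, and had no H3K27ac in any mouse. H3K27me3 covered 4.10, 2.34 and 3.29 kb of its 12.7 kb window in WT1, WT2 and WT3, and 1.29, 8.36, 0.664, 1.43 and 4.58 kb in DKOITD48, DKOITD52, DKOITD53e, DKOITD83 and DKOITD185. The groups overlapped with means of 3.24 ± 0.883 kb (SD, n = 3) and 3.26 ± 3.23 kb (SD, n = 5), DKOITD52 and DKOITD185 lying above the WT mice and the other 3 below them. The stretch common to all mice, from 1.22 to 1.89 kb, lay inside the gene. All WT mice also shared a stretch from 6.57 to 7.03 kb, within the long noncoding gene Gm33663. Peaks of DKOITD52 and DKOITD185 covered that stretch too. The adjacent coding genes Kcnq1 and Slc22a18 were both marked by H3K27me3 in 3 of 3 WT and 5 of 5 DKOITD mice. Peak files do not separate the parental alleles.

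**Figure D3:**
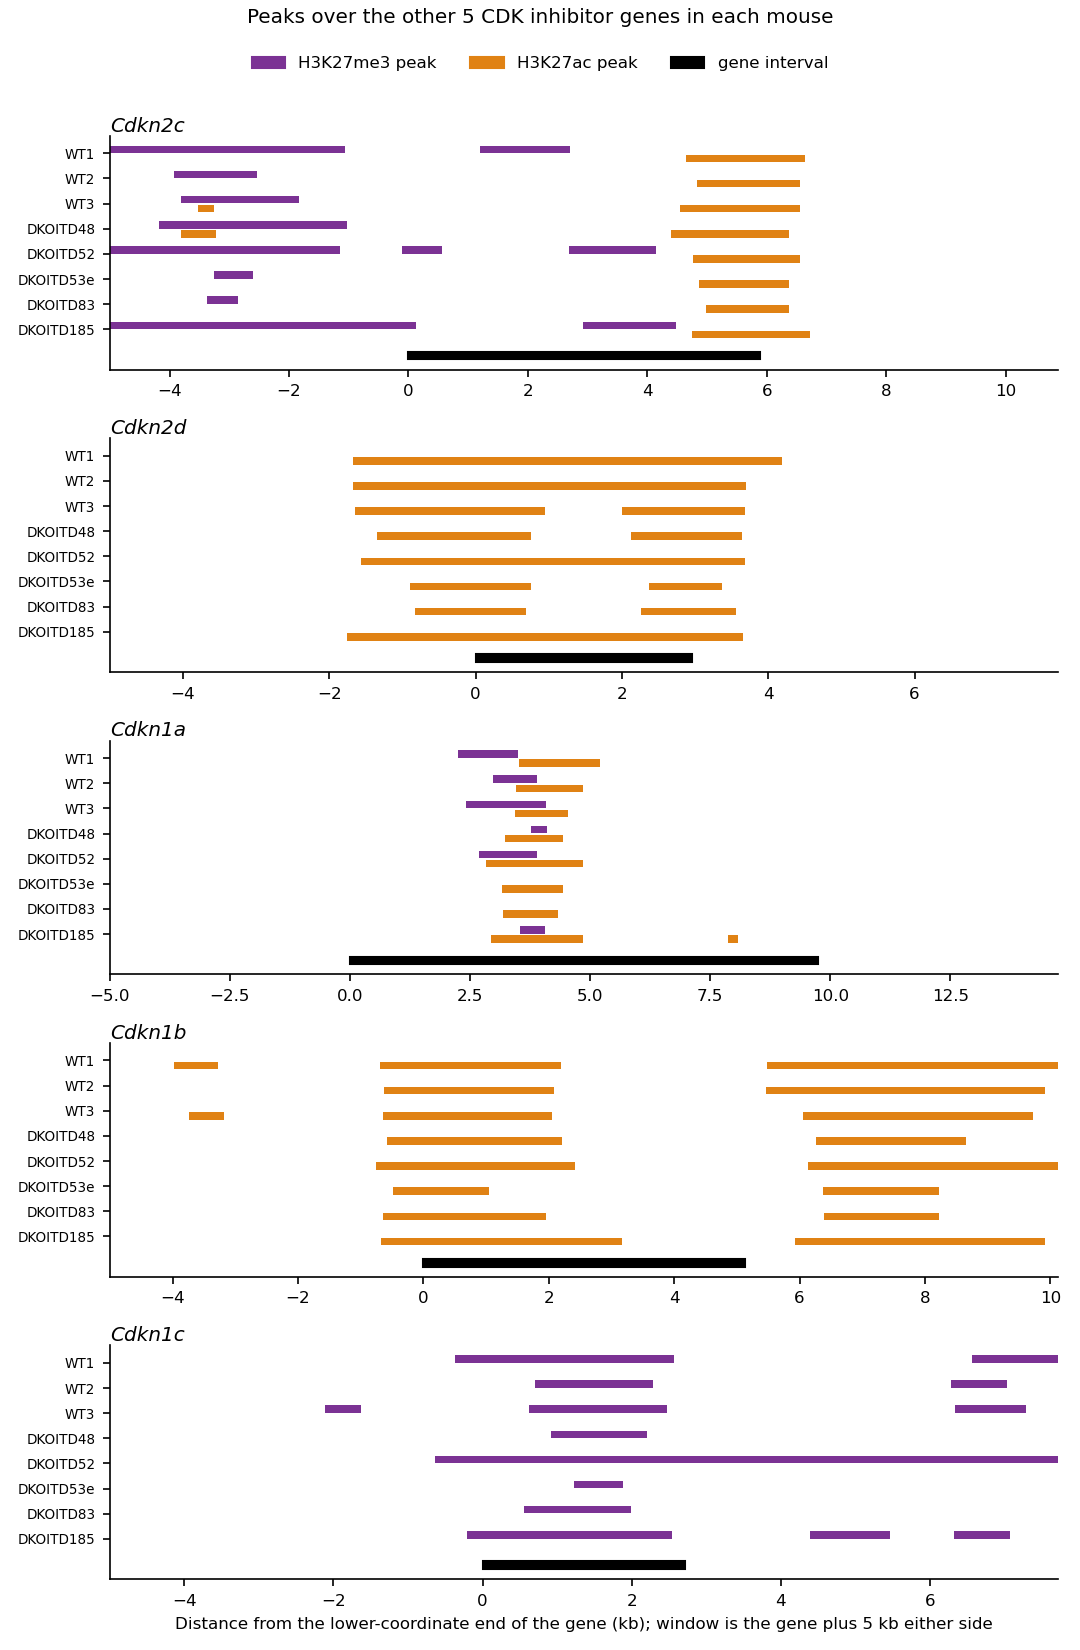
Peaks of each mouse against distance in kb from the lower-coordinate end of Cdkn2c, Cdkn2d, Cdkn1a, Cdkn1b and Cdkn1c; purple bars are H3K27me3 peaks, orange bars H3K27ac peaks, black bars the gene intervals. The stretches of each mark common to all mice lie at opposite ends of Cdkn2c, both marks meet inside Cdkn1a in the 6 mice that have them, and only 1 of them is present at the other genes.

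The comparison of DKOITD with WT mice asks whether peak coverage of these genes differed between the groups. The groups differ in genotype and in cell preparation, total marrow against marrow enriched for Kit-expressing cells. For this and the pathway genes below, the part of Ezh2 and Runx1 loss and the Flt3 duplication cannot be told apart from that of preparation. No CDK inhibitor gene passed the test for either mark. The 5 genes with enough H3K27me3 to be tested (Cdkn2a, Cdkn2b, Cdkn2c, Cdkn1a, Cdkn1c) gave 0 calls with limma at a Benjamini-Hochberg adjusted p under 0.05, where 0.0176% of the 5695 genes tested were called. The 4 tested for H3K27ac (Cdkn2c, Cdkn2d, Cdkn1a, Cdkn1b) gave 0 calls, where 4.93% of 11940 genes were (4.14% lower and 0.796% higher in DKOITD mice). At an unadjusted limma p under 0.05 the members again gave 0 for both marks, where 6.99% and 22.3% of all tested genes passed. WT and DKOITD values overlapped at every member tested, while they did not overlap at 5.22% of genes for H3K27me3 and 17.3% for H3K27ac.

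On the log2 scale of kb plus 0.5, the H3K27me3 difference was −0.39 for Cdkn2a (SE 0.62, 95% interval −1.76 to 0.98, limma adjusted p = 0.739). It turned to 3.04 with equal peak numbers and to 0.57 relative to territory, uncalled in both. With equal peak numbers only 1 of 3 WT mice was marked at Cdkn2a, beside 5 of 5 DKOITD mice. Cdkn2b differed by −1.01 (SE 0.92, interval −3.04 to 1.02), Cdkn2c by −0.07 (SE 0.81, interval −1.87 to 1.72) and Cdkn1c by −0.38 (SE 0.73, interval −1.98 to 1.23). Cdkn1a came nearest to the threshold, at −1.10 (SE 0.59, interval −2.40 to 0.19, limma adjusted p = 0.571). Its exact two-sided permutation p was 0.0714, where the smallest that 3 against 5 mice allow is 0.0357. Without DKOITD48, DKOITD53e and DKOITD83 the Cdkn1a difference shrank to −0.42 (limma adjusted p = 0.543). The median over these 5 genes was −0.39 and over all genes tested −0.84. The intervals of Cdkn2b, Cdkn2c and Cdkn1c reach beyond 1 log2 unit in both directions, so differences of that size cannot be set apart from none with these mice.

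The H3K27ac differences were estimated more tightly. Cdkn1b differed by −0.43 (SE 0.28, 95% interval −1.07 to 0.20, limma adjusted p = 0.359) and Cdkn2d by −0.39 (SE 0.28, interval −1.02 to 0.24, limma adjusted p = 0.397). For Cdkn2c the difference was −0.11 (SE 0.22, interval −0.62 to 0.40) and for Cdkn1a 0.10 (SE 0.25, interval −0.46 to 0.66). The Cdkn1a value depended on the setting. It was 1.34 with equal peak numbers (limma adjusted p = 0.104) and 1.34 at −log10 q of at least 5 (limma adjusted p = 0.313). In both settings 1 WT and 5 DKOITD mice were marked. Without WT3 it turned to −0.017. The median over the 4 genes was −0.25, beside −0.36 over all genes tested. Without DKOITD48, DKOITD53e and DKOITD83, the mice of small territory, the difference turned to 0.01 for Cdkn1b and 0.05 for Cdkn2d, and the H3K27me3 difference to 0.51 for Cdkn2a and 0.65 for Cdkn2b. No member was called without them.

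**Figure D4:**
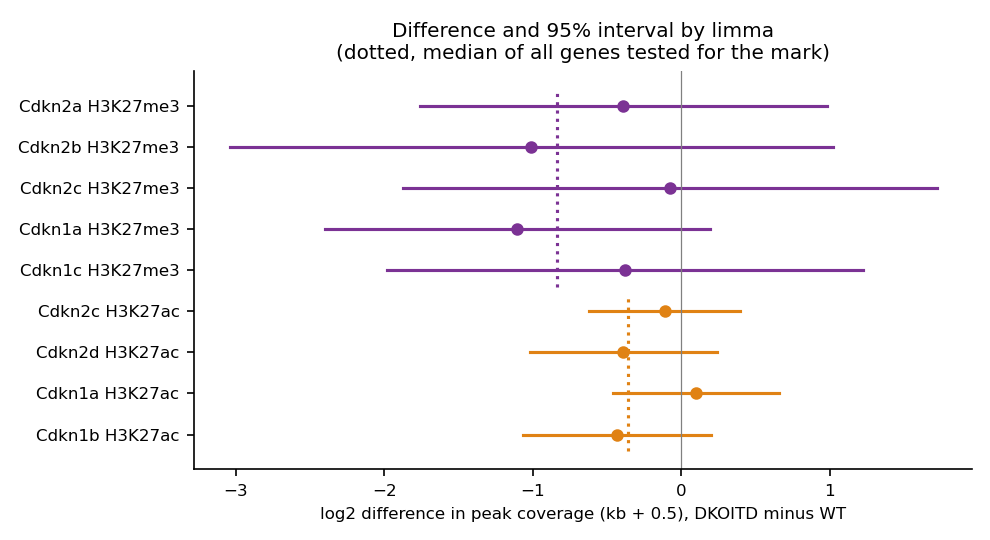
Difference in peak coverage, DKOITD minus WT, as log2 of kb plus 0.5, for each gene and mark tested; points are limma estimates, bars 95% intervals and dotted lines the median of all genes tested for the mark. Every interval includes 0, and the H3K27me3 intervals (purple) are wider than those of H3K27ac (orange).

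The other genes of the pathway were taken as 4 lists. Among 11 cyclins and CDKs, 8 had H3K27ac in every mouse and 1 had H3K27me3 in every mouse. Of the 11 tested for H3K27ac and the 3 tested for H3K27me3, none was called. Cdk6, a kinase bound by INK4 proteins, had the smallest H3K27ac p, with 27.9 ± 10.5 kb in WT (SD, n = 3) and 8.66 ± 6.14 kb in DKOITD mice (SD, n = 5; limma adjusted p = 0.0930). Without DKOITD185, and on kb relative to territory, it was called lower (limma adjusted p = 0.0321 and 0.0153). The difference of −1.83 shrank to −0.82 without DKOITD48, DKOITD53e and DKOITD83 (limma adjusted p = 0.361) and was −0.27 percentile points within libraries (limma adjusted p = 0.952). Ccnd1, which encodes cyclin D1, had no H3K27ac in WT mice and H3K27ac in 4 of 5 DKOITD mice, at 1.49 ± 0.996 kb (SD, n = 5; limma adjusted p = 0.0993), and without DKOITD83 it was called higher (limma adjusted p = 0.00675). Its H3K27me3 was 5.89 ± 0.388 kb in WT and 2.73 ± 2.41 kb in DKOITD mice (limma adjusted p = 0.571). Ccnd2, cyclin D2, had H3K27me3 of 3.41 ± 0.222 kb and 2.56 ± 2.57 kb (limma adjusted p = 0.599).

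Among 11 RB and E2F genes, 9 had H3K27ac in every mouse and 9 had no H3K27me3 in any, and none was called for either mark. The smallest H3K27ac p-values were those of the transcription factor genes E2f1 (3.27 ± 1.10 kb in WT and 1.47 ± 0.602 kb in DKOITD, limma adjusted p = 0.126) and E2f2 (5.71 ± 0.419 and 2.60 ± 2.32 kb, limma adjusted p = 0.191, and 0.0449 without DKOITD52). The E2f2 difference of −1.30 was −0.24 without the 3 mice of small territory (limma adjusted p = 0.751). E2f5 was the only one tested for H3K27me3, with 0.336 ± 0.320 and 0.0936 ± 0.209 kb.

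In the p53 arm, 1 of 10 genes was called for H3K27ac and it was lower in DKOITD mice, where 4.14% of all tested genes were lower. Gadd45a, a growth-arrest gene induced by DNA damage, had 2.71 ± 0.954 kb in WT (SD, n = 3) and 0.460 ± 0.488 kb in DKOITD mice (SD, n = 5; log2 difference −1.85, limma adjusted p = 0.0453). That call was lost, with adjusted p-values from 0.0767 to 0.258, without any 1 of WT1, WT2, WT3, DKOITD48, DKOITD53e or DKOITD83, while the difference stayed between −2.06 and −1.63. It was also lost without those last 3 mice together (−1.17, adjusted p = 0.166) and with a pseudocount of 0.1 kb (0.146). Of the 2 genes tested for H3K27me3, none was called. Bbc3, which encodes the pro-apoptotic protein PUMA, had H3K27me3 in 3 of 3 WT mice (1.38 ± 0.856 kb) and 0 of 5 DKOITD mice (limma adjusted p = 0.412, and 0.00135 on percentiles within each library). Pmaip1, which encodes NOXA, had 2.004 ± 0.792 and 0.537 ± 1.09 kb (limma adjusted p = 0.571).

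Among 17 regulators of the CDK inhibitor genes, 15 were tested for H3K27ac and 2 were called, both lower in DKOITD mice, beside the 4.14% of all tested genes called lower. Ets1, a transcription factor of lymphoid cells and an activator of Cdkn2a, had 6.68 ± 2.80 kb in WT (SD, n = 3) and 0.498 ± 0.359 kb in DKOITD mice (SD, n = 5; log2 difference −2.87, limma adjusted p = 0.00420). Smad3, a TGF-beta effector that acts on Cdkn2b, had 9.57 ± 3.49 and 2.02 ± 1.18 kb (log2 difference −2.07, limma adjusted p = 0.0209). Without WT1 the adjusted p was 0.0563 for Ets1 and 0.154 for Smad3, and without WT2 or WT3 it was 0.0505 or 0.108 for Smad3. The Smad3 call was also lost on peaks of −log10 q of at least 5 (0.320), on percentiles (0.116) and without DKOITD48, DKOITD53e and DKOITD83 together (0.135). Of 9 regulators tested for H3K27me3 none was called. Those with the smallest p were Id1 (1.94 ± 0.839 and 0.486 ± 0.607 kb) and Foxo1 (3.68 ± 1.18 and 1.31 ± 1.86 kb), both at a limma adjusted p of 0.571. The shift in progenitor markers between the groups stands beside these H3K27ac calls, and its part in them was not tested.

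Likeness of coverage over the 8 mice was described by Pearson's r of log2 coverage. Both coverages in a pair come from the same libraries, which differ widely in territory, and the median r with all distant tested genes was already 0.868 for Cdkn2a, 0.820 for Cdkn2b, 0.712 for Cdkn2c, 0.758 for Cdkn1a and 0.860 for Cdkn1c by H3K27me3. By H3K27ac it was 0.767 for Cdkn2d, 0.785 for Cdkn1b, 0.491 for Cdkn1a and 0.450 for Cdkn2c. Between members by H3K27me3, r was 0.932 between Cdkn2a and Cdkn2b, which share peaks, 0.949 between Cdkn2a and Cdkn1c on different chromosomes, and 0.607 between Cdkn2b and Cdkn2c. For H3K27ac it was 0.967 between Cdkn2d and Cdkn1b, on different chromosomes, and 0.00 between Cdkn2c and Cdkn1a. The distant genes whose pattern was most like that of Cdkn2a were Prkcz (r = 0.995), Sp5 (0.994) and Gm42517 (0.994), and for Cdkn2b Nkx2-1 (0.997), Ripor3 (0.993) and Ccdc184 (0.993). For Cdkn2c H3K27me3 they were Rai14 (0.970), Ppp1r9a (0.962) and Six6 (0.962). For Cdkn1c they were Fhdc1 (0.980), Cuedc1 (0.979) and Mrps23 (0.979), and for Cdkn1a H3K27me3 Cryzl1 (0.984), Lamc1 (0.979) and Fzd9 (0.976). By H3K27ac they were Sag, Arfgap1 and Fhl3 for Cdkn2d (0.997, 0.994 and 0.993) and Prkag1, Psmb1 and Tbp for Cdkn1b (0.992 each). They were Lemd2, Slc35e3 and Racgap1 for Cdkn1a (0.974, 0.972 and 0.969) and Snrnp48, Pcx and Gfpt1 for Cdkn2c (0.965, 0.965 and 0.950).

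In the human lines the CDKN2A/CDKN2B window was chromosome 9, 21960000 to 22015000 (hg38). Both Loucy libraries had 1 H3K27ac peak in it, of 2.79 kb at 21993402 to 21996192 and of 2.95 kb at 21993416 to 21996366, a mean of 2.87 ± 0.113 kb (SD, n = 2). Their −log10 q were 5.71 and 7.22, stronger than 75.3% and 79.2% of the peaks of their libraries. Jurkat had no H3K27ac peak in the window in either library, although these libraries held 32665 and 28877 peaks. With 2 libraries a line no test was made. For H3K27me3, neither line had a peak in the window. The Loucy H3K27me3 files list only 189 and 200 peaks in the whole genome, so at that sensitivity the absence of a peak says nothing of the locus. Jurkat had 16687 and 10199 H3K27me3 peaks, most of them weak. Only 24 and 23 of them reached a −log10 q of at least 5, beside 70 and 86 in Loucy. The absence of an H3K27me3 peak in Jurkat thus says little of the locus either.

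In Jurkat the gap around the window was long for every library. The interval with no H3K27ac peak was 3964 and 5809 kb, with 1 longer gap on chromosome 9 in each library, and the interval with no H3K27me3 peak was 3346 and 4197 kb, with 4 and 3 longer gaps. From 21096825 to 23554313, over 2.46 Mb, no Jurkat library had a peak of either mark, which made it the longest such interval of chromosome 9 but 1. The longest, of 17.0 Mb, ran from 43557650 to 60519001, and the third was of 1.83 Mb. Each Loucy H3K27ac library had 5 peaks wholly inside the 2.46 Mb interval, the one in the window among them, and all 5 lay at or below 22050706. Above the window Loucy1 was sparse as well, its next H3K27ac peak starting at 26892031 beside 25060914 and 26891623 in the Jurkat libraries. The next H3K27ac peak of Loucy2 started at 22050393. Jurkat is known to carry a deletion of CDKN2A. From peak files, a deleted locus and a locus without either mark cannot be told apart.

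**Figure D5:**
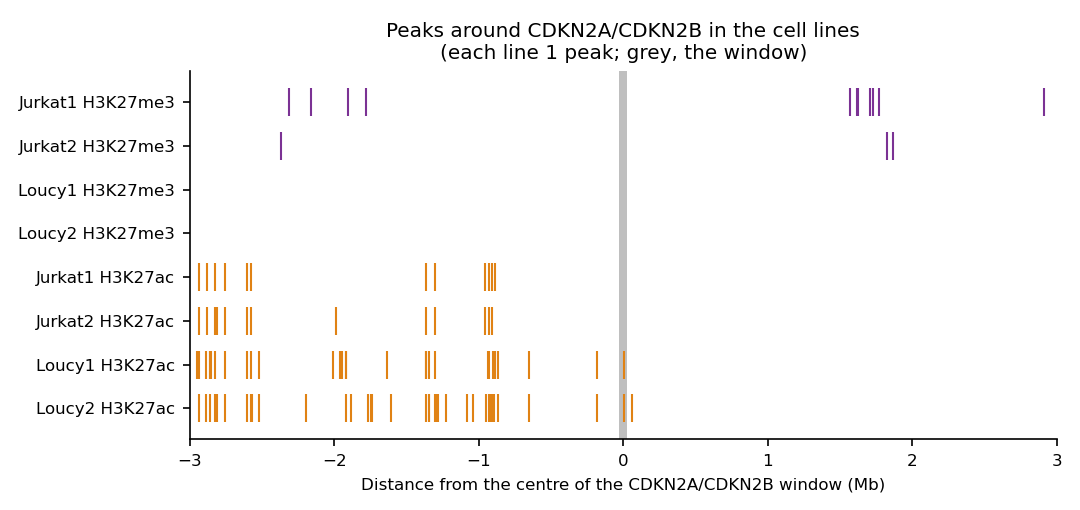
Peaks within 3 Mb of the centre of the CDKN2A/CDKN2B window (grey) in each Jurkat and Loucy library; purple lines are H3K27me3 peaks, orange lines H3K27ac peaks, against distance in Mb. Both Loucy H3K27ac libraries have a peak in the window, which lies within a stretch of 2.46 Mb that holds no peak of either mark in any Jurkat library.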

How the data were processed

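The authors ran MACS 2.0.10.20131216 in its broad mode on the paired-end fragments of 1 library at a time, per the file headers, at a q cutoff of 0.05 and with 1 fragment kept per position. Some listed broad peaks were weaker than that cutoff. At Cdkn2b, for example, H3K27me3 peaks had a −log10 q of 1.07 in WT2 and 1.19 in DKOITD53e. Covered bases therefore did not all pass a q of 0.05. WT libraries were set against the WT1 input, DKOITD libraries against the DKOITD48 input and the cell lines against 1 input of the line. Reads had been aligned with Bowtie2 2.2.5 to mm10 or hg38, per the submitters' processing notes. A Drosophila chromatin spike-in was added, and per the labels its reads were not used, so the values carry no external scale. Each deposited peak has a pileup signal, a −log10 p, a −log10 q and a fold enrichment, which is a ratio over the input. These are the authors' own values, and −log10 q was used to rank and filter peaks within a library.

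From these, merged peak kb per window was computed with Python 3.11.15 for all protein-coding genes of the RefSeq GRCm38.p6 gene table, in which all 7 symbols matched. limma 3.58.1 in R 4.3.3 was fitted on log2(kb + 0.5) over genes with at least 200 bp in at least 3 of the 8 mice, which keeps 5 of 7 members for H3K27me3 and 4 of 7 for H3K27ac, with Benjamini-Hochberg adjustment over all genes tested. The fit was tested on simulated data. Beside it, exact two-sided permutation tests over the 56 assignments of mice were run with scipy 1.17.1. Mice are the replicates. The cell-line libraries were not labelled as separate cultures. Peak files hold no reads, so coverage states where enrichment passed the caller and not how high it was, and an absent peak is not an absent mark. The members and the pathway and marker lists were chosen with earlier results of these data known. All 7 members were named. In each pathway list, genes past the threshold were named or, where none passed, the 2 with the smallest limma p. Coding genes next to a window were listed, and also the 3 genes over 1 Mb away with the highest r. Alternatives tried were the flank, the pseudocount, a stricter q, equal peak numbers, scaling by territory, percentiles within a library and leaving out mice. Input libraries were not used here.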

Additional observations from a re-analysis of the deposited data

How the results depend on the processing

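Over 18 other settings and 156 refits of the members, none was called (limma adjusted p from 0.104 to 0.994), 129 kept the sign of the difference and 27 turned it. The smallest p was that of Cdkn1a H3K27ac with equal peak numbers, where the difference was 1.34. At −log10 q of at least 5 no member had enough H3K27me3 to be tested. H3K27me3 differences that turned were, with the same number of peaks taken from each library (the strongest 1891), 3.04 for Cdkn2a, 0.90 for Cdkn2b, 0.38 for Cdkn2c and 0.78 for Ccnd1. Relative to territory they were 0.57 for Cdkn2a, 0.67 for Cdkn2c and 0.40 for Cdkn1c. Without DKOITD48, DKOITD53e and DKOITD83 together they were 0.51 for Cdkn2a, 0.65 for Cdkn2b, 1.17 for Cdkn2c, 0.87 for Cdkn1c and 0.54 for Ccnd2. As percentile points within a library they were 5.75 for Cdkn2c and 3.36 for Cdkn1c. With 1 kb flanks the value was 0.34 for Cdkn2c and 0.056 for Ccnd2, and for Cdkn2c it was 0.078 with 10 kb flanks and 0.026 with a pseudocount of 2 kb. For H3K27ac, relative to territory, Cdkn2c turned to 0.52, Cdkn2d to 0.31 and Cdkn1b to 0.29. As percentile points they were 6.97, 1.56 and 0.61, and without the 3 mice Cdkn2d was 0.052 and Cdkn1b 0.013. Leaving out 1 mouse at a time gave −0.42 to 0.41 for Cdkn2c H3K27me3 and −0.017 (without WT3) to 0.21 for Cdkn1a H3K27ac. The median of all genes tested was −0.84 for H3K27me3 and −0.36 for H3K27ac, moving to −0.67 and 0.15 relative to territory and to 0.45 and 0.00 without the 3 mice. Of the 4 members with H3K27me3 in all 8 mice, 1 remained at a minimum of 1000 bp, 0 at −log10 q of at least 5 and 0 with equal peak numbers. Of the 4 with H3K27ac in all 8, 2 remained at −log10 q of at least 5 and all 4 at a minimum of 1000 bp. With equal peak numbers Cdkn1a alone of these fell, to 6 of 8 mice. The cause was not tested, beyond that each of these settings keeps fewer peaks or asks for more of them. No paired analysis was possible because WT and DKOITD mice share no mouse numbers and the cell lines were compared without a test.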
